A study of Mus musculus with 17 samples.

Results

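The effect of the microRNA miR-155 on mouse bone marrow cells was read from 2 miR-155 arrays of dataset A set against the 3 empty vector arrays of the same dataset. These arrays were taken by their titles, and they are 5 of the 17 arrays of the series. Cells came from C57Bl/6 mice treated with 150 mg/kg 5-fluorouracil 4 days earlier, a drug that kills dividing marrow cells and leaves a marrow enriched for primitive cells. They were cultured with stem cell factor, interleukin 11 and Flt3 ligand, and infected with an MXW retrovirus that carried miR-155, the cluster of miR-99b, let-7e and miR-125a, or no microRNA (empty vector). Living cells that expressed the EGFP marker of the virus were sorted 5 days after virus was first added. The culture, the drug and the viral infection were therefore shared by both groups. Each array measured RNA from a mixed culture of such cells rather than from 1 cell type, so fewer cells of a type and less RNA per cell cannot be told apart. The design text describes independent biological triplicates, and 2 miR-155 arrays were analysed here. The cluster vector, on 3 arrays of dataset A, entered the same fit and served as a second comparison.

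MicroRNAs are short RNAs that, held by Argonaute proteins, pair with messenger RNAs mainly through their seed, bases 2 to 8, and lower the stability or translation of the paired message. miR-155 is made from the non-coding host gene Mir155hg. In mice and humans it is known as a regulator of immune cells, induced in activated macrophages and lymphocytes, and its forced expression in mouse marrow has been linked to abnormal growth of granulocyte and monocyte lineages. Known targets include the phosphatase gene Inpp5d (SHIP1) and the transcription factor genes Spi1 (PU.1), Cebpb and Bach1.

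The sequences are shown because the seed decides which messages a microRNA can pair with, and because the cells of the cluster vector carried other seeds. They were read from RefSeq (GRCm38.p6), with the seed in capitals.

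mmu-miR-155-5p: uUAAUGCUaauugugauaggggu

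mmu-miR-99b-5p: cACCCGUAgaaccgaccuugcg

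mmu-let-7e-5p: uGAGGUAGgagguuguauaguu

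mmu-miR-125a-5p: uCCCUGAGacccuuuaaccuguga

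The mature miR-155-5p lies on the plus strand at chr16:84714143-84714165, inside the long non-coding RNA gene Mir155hg. Of 1679 mature mouse microRNAs in the table, miR-155-5p was the 1 with its seed, and none of the 3 cluster microRNAs shared it. By contrast, the seed of let-7e-5p stood in 11 mature microRNAs of the table. No probe on the array measured Mir155 or Mir155hg, so the arrays give no direct check of the delivered microRNA, and the group names rest on the labels.

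Of 19057 genes with a probe, 10171 were detected (detection p under 0.05 on at least 2 arrays of dataset A that have a detection column) and tested. The share of probes detected was 34.8% on miR-155 array 2, the lowest of these arrays, and at most 38.7% on the others. Correlations of normalized log2 intensities lay between 0.980 and 0.990 over 28 pairs of arrays, and the miR-155 arrays correlated at 0.987 with each other. No pair of arrays held identical values. Values below are normalized log2 intensities unless called a difference, a difference of 1 is 2-fold, and adjusted p values come from limma.

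In miR-155 cells, 13 of 28 tested genes of maturing neutrophils and 4 of 29 tested genes of monocytes and macrophages were lower than in empty vector cells. Both lists were chosen with earlier results of these data known, so these counts are descriptive and no independent evidence of a direction. With an adjusted p under 0.05, 89 genes (0.875% of genes tested) were lower and 21 genes (0.206%) were higher in miR-155 cells. The largest differences were falls of the stefin A genes, inhibitors of cysteine proteases, and of granule and surface proteins of neutrophils. The rises were smaller, the largest being Bcat1. At an unadjusted p under 0.05, 927 genes differed. All 21 higher and all 89 lower genes had miR-155 arrays that did not overlap the empty vector arrays. Over all genes tested, 11.9% were separated above and 12.4% below in this sense. The median log2 difference of all genes tested was 0.0058. Without miR-155 array 2, 20 genes were called lower and 1 higher, and without miR-155 array 1, 62 were called lower and 19 higher, of which 48 and 11 were among the genes called with all arrays. Without empty vector array 1, 2 or 3, 7, 10 or 7 genes were called higher and 50, 61 or 30 lower. Of the 89 lower genes, 20 were still called without miR-155 array 2. Called under every alternative setting and without each array in turn were 16 lower genes, among them Stfa2, Cstdc4, Stfa1, Ltf, Chil3, Itgb2l, Fcnb and Hbb-bs, and 1 higher gene, Cnrip1.

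**Figure D1:**
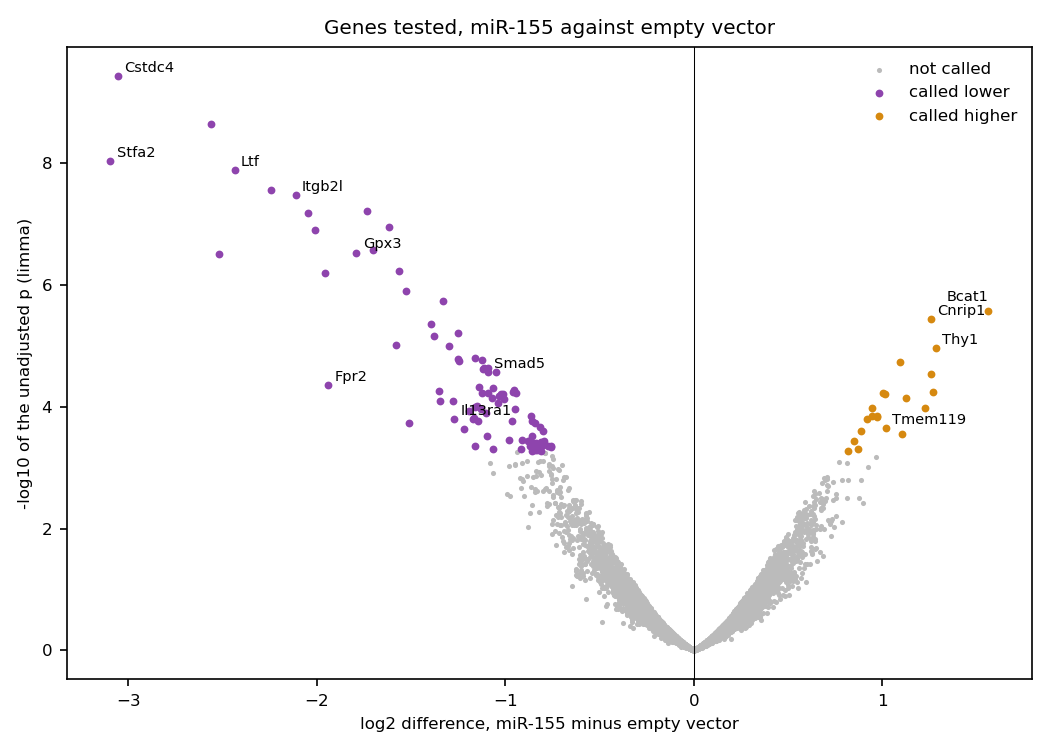
Each point is 1 of the 10171 genes tested, with the log2 difference of miR-155 minus empty vector on the horizontal axis and -log10 of the unadjusted limma p on the vertical axis. The 89 lower genes reach a log2 difference of -3.09 (Stfa2), and the 21 higher genes reach 1.56 (Bcat1).

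The largest falls were seen in a family of genes that lie beside each other. Stfa2 had 6.70 and 5.45 in miR-155 cells, against 9.23, 8.90 and 9.38 in empty vector cells. Both miR-155 arrays lay far below the 3 empty vector arrays, with array 2 lowest. Stfa2 was thus 8.54-fold lower (log2 difference -3.09, SE 0.29, adjusted p = 3.15e-05). Cstdc4, a stefin A-like gene, had 8.42 and 7.68 in miR-155 cells and 11.13, 11.01 and 11.17 in empty vector cells. The groups did not overlap, and the log2 difference was -3.05 (SE 0.23, adjusted p = 3.71e-06), 8.3-fold lower. Stfa1 was the brightest of them, with 11.25 and 10.52 in miR-155 cells, against 13.61, 13.39 and 13.35 in empty vector cells. It fell by 2.56 on the log2 scale (adjusted p = 1.15e-05). Cstdc5 (log2 difference -2.52, adjusted p = 0.000239), Csta2 (-2.05, 8.45e-05) and Csta3 (-1.51, 0.0245) were also called lower. For 5 other lower genes no miR-155 array had a detected probe, so their folds are bounds, at least 1.52-fold to at least 1.75-fold lower. In the order of tested genes on chromosome 16, Cstdc4, Csta3, Csta2 and Stfa1 followed one another, as did Cstdc5 and Stfa2. These genes are near-identical copies in mice, so it is uncertain which of them a probe reads, and the 6 falls are not 6 independent observations.

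Granule and chitinase-like genes of neutrophils were also among the large falls. Ltf, which encodes the iron-binding protein of secondary granules, had 8.66 and 8.17 in miR-155 cells, against 11.21, 10.35 and 10.99 in empty vector cells. All 3 empty vector arrays were above 10, and both miR-155 arrays were below 9. The fall was 5.41-fold (log2 difference -2.44, SE 0.23, adjusted p = 3.25e-05). Camp, the antimicrobial cathelicidin of the same granules, had 8.53 and 8.83 in miR-155 cells and 10.84, 9.92 and 10.02 in empty vector cells, without overlap. Its log2 difference was -1.58 (SE 0.25, adjusted p = 0.0042). Ngp, neutrophilic granule protein, was among the brighter genes, with 10.80 and 10.51 in miR-155 cells and 12.52, 11.94 and 12.20 in empty vector cells. It fell by 1.56 on the log2 scale (adjusted p = 0.000424). The chitinase-like genes Chil3 (-2.01, adjusted p = 0.000126), Chil4 (-2.24, 5.63e-05) and Chil1 (-1.70, 0.000239) fell as well, as log2 differences. Chil3 and Chil4 lie next to each other and are similar in sequence, so their probes may not be fully specific.

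**Figure D2:**
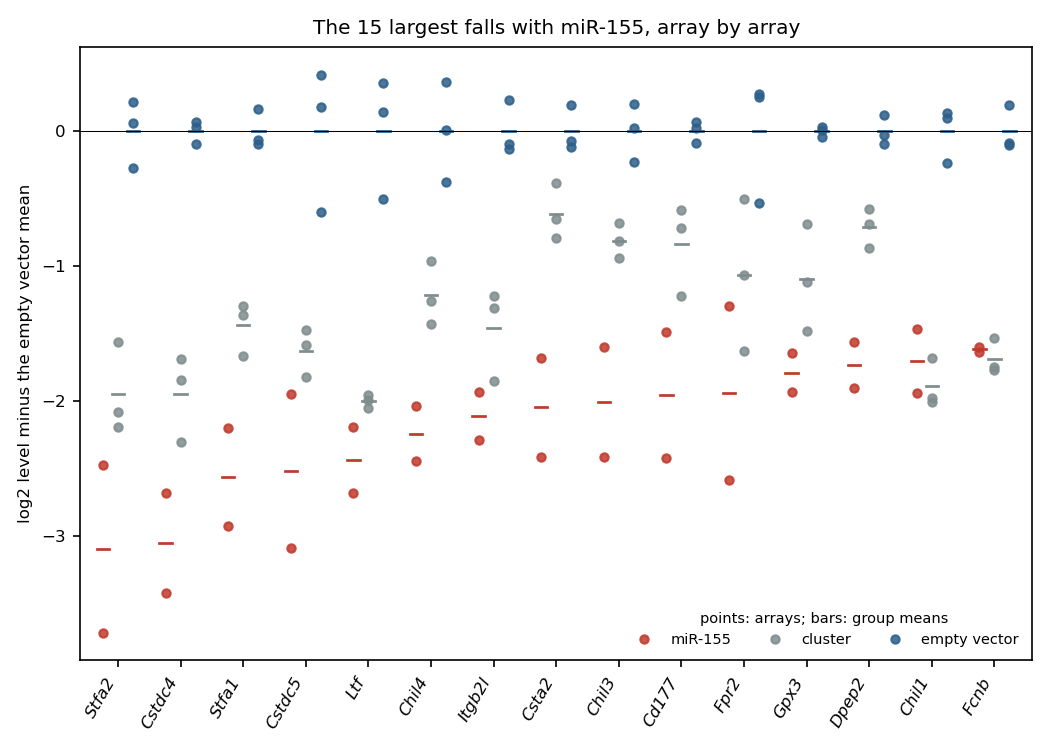
The 15 genes with the largest called falls are drawn with each array as a point and group means as bars, as log2 level minus the mean of the empty vector arrays. miR-155 (red) lies below the empty vector (blue) in all 15, with the cluster vector (grey) between, near or below miR-155.

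Genes of surface and secreted proteins were also among the large falls. Itgb2l, an integrin subunit of neutrophils, had 4.97 and 4.62 in miR-155 cells, against 7.13, 6.77 and 6.81 in empty vector cells, and was detected on 1 of the 2 miR-155 arrays. The groups lay apart, with a log2 difference of -2.11 (SE 0.22, adjusted p = 5.63e-05). Cd177, a neutrophil surface glycoprotein, had 5.59 and 4.66 in miR-155 cells and 7.10, 6.99 and 7.15 in empty vector cells, with a log2 difference of -1.96 (adjusted p = 0.000435). It too was detected on 1 miR-155 array. Fpr2, a receptor for formylated peptides, was the most variable of the large falls, with 7.58 and 6.30 in miR-155 cells, against 9.16, 8.35 and 9.13 in empty vector cells. Its log2 difference was -1.94 (SE 0.35, adjusted p = 0.0122). Gpx3, a secreted glutathione peroxidase, fell by 1.79 (adjusted p = 0.000239), and Dpep2, a membrane dipeptidase, by 1.74 (adjusted p = 8.45e-05), both on the log2 scale. Other detected probes of Dpep2 had log2 differences of -1.72, -0.83 and -0.19. Fcnb, a pattern-recognition lectin, had 9.10 and 9.14 in miR-155 cells, against 10.65, 10.93 and 10.63 in empty vector cells. It was the tightest of these falls, with a log2 difference of -1.62 (SE 0.18, adjusted p = 0.000126).

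As a list, 13 of 28 neutrophil maturation genes tested were called lower and 0 higher, with a median log2 difference of -0.69, beside 0.0058 over all genes tested. The groups did not overlap, with miR-155 below, for 20 of the 28, beside 12.4% of all genes tested. Their called members beside those above were Lrg1 (-1.24), Ifitm6 (-1.16) and Itgam (-0.96), the last encoding the integrin CD11b. Without miR-155 array 2, 9 of the 28 were called and the median was -0.64, and without array 1, 12 were called. The other 15 were not called. S100a8, a calcium-binding protein abundant in neutrophils, had a log2 difference of 0.18 (adjusted p = 0.886), and S100a9 one of -0.43 (adjusted p = 0.435). Among 17 genes of primary granules and promyelocytes, 1 (Fcnb) was lower, with a median of -0.17. Membership in these lists was chosen with earlier results of these data known, so the counts describe the genes and are no independent evidence of a direction.

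Macrophage and monocyte genes had a mean level below the empty vector mean in 26 of 29 tested. Of the 29, 4 were called lower and 0 higher, with a median log2 difference of -0.61. For 20 of them the miR-155 arrays lay below all empty vector arrays, beside 12.4% of all genes tested. Ms4a6d, a membrane protein of myeloid cells, had 9.48 and 9.16 in miR-155 cells, against 10.48, 10.38 and 10.85 in empty vector cells (log2 difference -1.25, SE 0.21, adjusted p = 0.00609). Gpnmb, a glycoprotein of macrophages and other cells, fell by 1.12 (adjusted p = 0.00745). Other detected probes of Gpnmb had log2 differences of -0.80 and -0.13. Adgre1, which encodes the macrophage antigen F4/80, had 7.79 and 7.42 in miR-155 cells and 8.33, 8.77 and 8.45 in empty vector cells. The groups did not overlap, and the log2 difference was -0.91 (SE 0.20, adjusted p = 0.0403). F13a1, a coagulation factor subunit made by monocytes, fell by 0.86 (adjusted p = 0.0362). Without miR-155 array 2 none of the 29 was called, and without array 1 3 were. Of 16 dendritic cell and MHC class II genes, 1 was called, the costimulatory ligand gene Cd86. It had 5.83 and 5.61 in miR-155 cells and 6.50, 6.57 and 6.53 in empty vector cells (log2 difference -0.81, adjusted p = 0.0419). Other detected probes of Cd86 had log2 differences of -0.60 and -0.16. The median log2 difference of these 16 genes was -0.40. Without overlap, 7 lay below the empty vector and 1 above, beside 12.4% below over all genes tested.

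**Figure D3:**
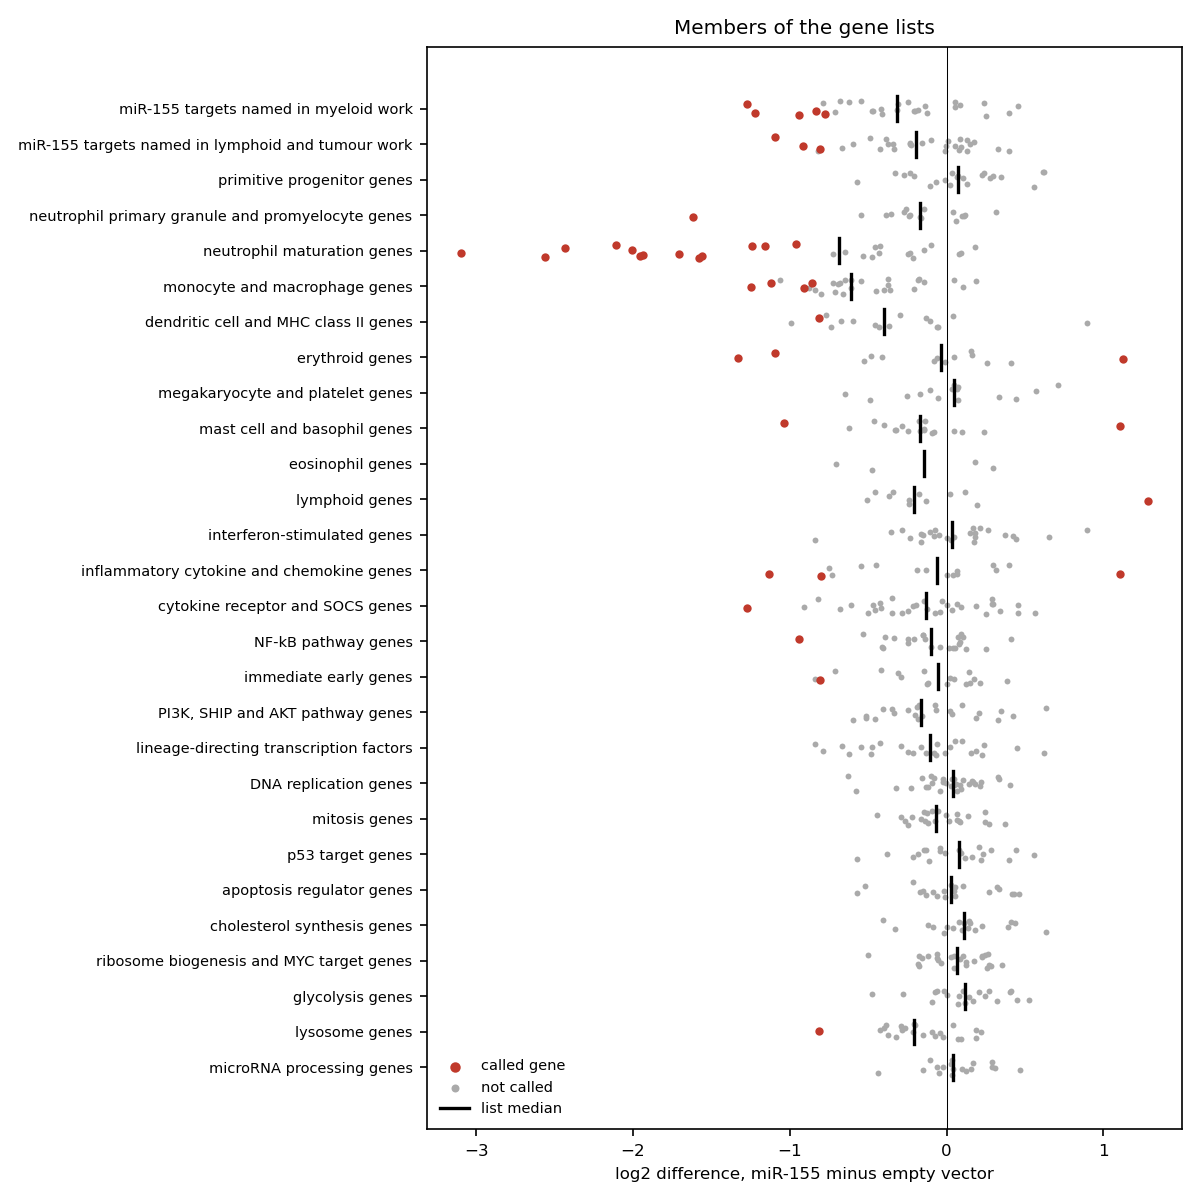
Every tested member of each of the 28 gene lists is a point at its log2 difference of miR-155 minus empty vector, red where called, and the black bar is the list median. The medians of the neutrophil maturation list (-0.69) and the monocyte and macrophage list (-0.61) lie furthest to the left, and those of most other lists lie near 0.

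Genes named in earlier myeloid work as miR-155 targets had a mean below that of the empty vector in 22 of 29 cases, and most of these differences did not pass the test. Of the 29, 5 were called lower and 0 higher, and the median log2 difference was -0.32. Without overlap, 13 lay below the empty vector and 2 above. The shares over all genes tested were 0.875% called lower, 12.4% below without overlap and 11.9% above. Il13ra1, a subunit of the interleukin 4 and 13 receptors, had 5.12 and 5.43 in miR-155 cells, against 5.89, 6.85 and 6.91 in empty vector cells. Its empty vector arrays varied widely (SD 0.57, n = 3), and the fall was 2.42-fold (log2 difference -1.27, SE 0.26, adjusted p = 0.0223). Lpl, lipoprotein lipase, had 8.23 and 7.50 in miR-155 cells and 9.13, 8.76 and 9.36 in empty vector cells, with a log2 difference of -1.22 (adjusted p = 0.0286). Tab2, an adaptor of the kinase TAK1, showed the tightest of these falls, with 8.72 and 8.83 in miR-155 cells, against 9.73, 9.66 and 9.76 in empty vector cells. The log2 difference of Tab2 was -0.94 (SE 0.18, adjusted p = 0.0126). Tspan14 (log2 difference -0.83, adjusted p = 0.0489), a tetraspanin, and Sla (log2 difference -0.77, adjusted p = 0.045), a Src-like adaptor, completed the 5. Without miR-155 array 2 or empty vector array 3 none was called, and 1 was called without miR-155 array 1. Without either empty vector array 1 or array 2, 3 were called. Another detected probe of Sla had a log2 difference of 0.11.

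The best known targets were not called against the empty vector. Bach1, a repressor of heme and oxidative stress genes, had 5.25 and 5.19 in miR-155 cells, against 6.08, 5.61 and 6.34 in empty vector cells, with a log2 difference of -0.79 (adjusted p = 0.131). Both miR-155 arrays lay below all empty vector arrays, and Bach1 was called lower against the cluster vector (log2 difference -0.98, adjusted p = 0.0433). Cebpb, a transcription factor of myeloid maturation, had 11.00 and 10.85 in miR-155 cells and 11.49, 11.64 and 11.52 in empty vector cells, again without overlap (log2 difference -0.63, adjusted p = 0.17). Spi1 had a log2 difference of -0.47 (adjusted p = 0.468) and Csf1r, the receptor of macrophage colony-stimulating factor, one of -0.68 (adjusted p = 0.0976). Inpp5d had 7.32 and 7.29 in miR-155 cells and 7.52, 7.54 and 7.47 in empty vector cells, a log2 difference of -0.20 (SE 0.18, adjusted p = 0.815). A miR-155 effect of this size on its messenger RNA was not separable from 0 with these arrays. Of 30 further targets named in lymphoid and tumour work, 3 were called lower, 0 higher, and the median was -0.19. Smad5, a signal transducer of bone morphogenetic proteins, had 5.89 and 5.46 in miR-155 cells, against 6.89, 6.76 and 6.66 in empty vector cells. It fell 2.13-fold (log2 difference -1.09, SE 0.19, adjusted p = 0.0079). Another detected probe of Smad5 had a log2 difference of 0.033, so the fall was seen with 1 of 2 detected probes. The other two were the transcription factor genes Ets1 (-0.92, adjusted p = 0.048) and Fosl2 (-0.81, adjusted p = 0.0499), both as log2 differences, with adjusted p close to the threshold. Without miR-155 array 2 none of the 30 was called, and with any other miR-155 or empty vector array left out, between 1 and 2 were. Seed sites were not examined, because 3' UTR sequences were not used here.

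**Figure D4:**
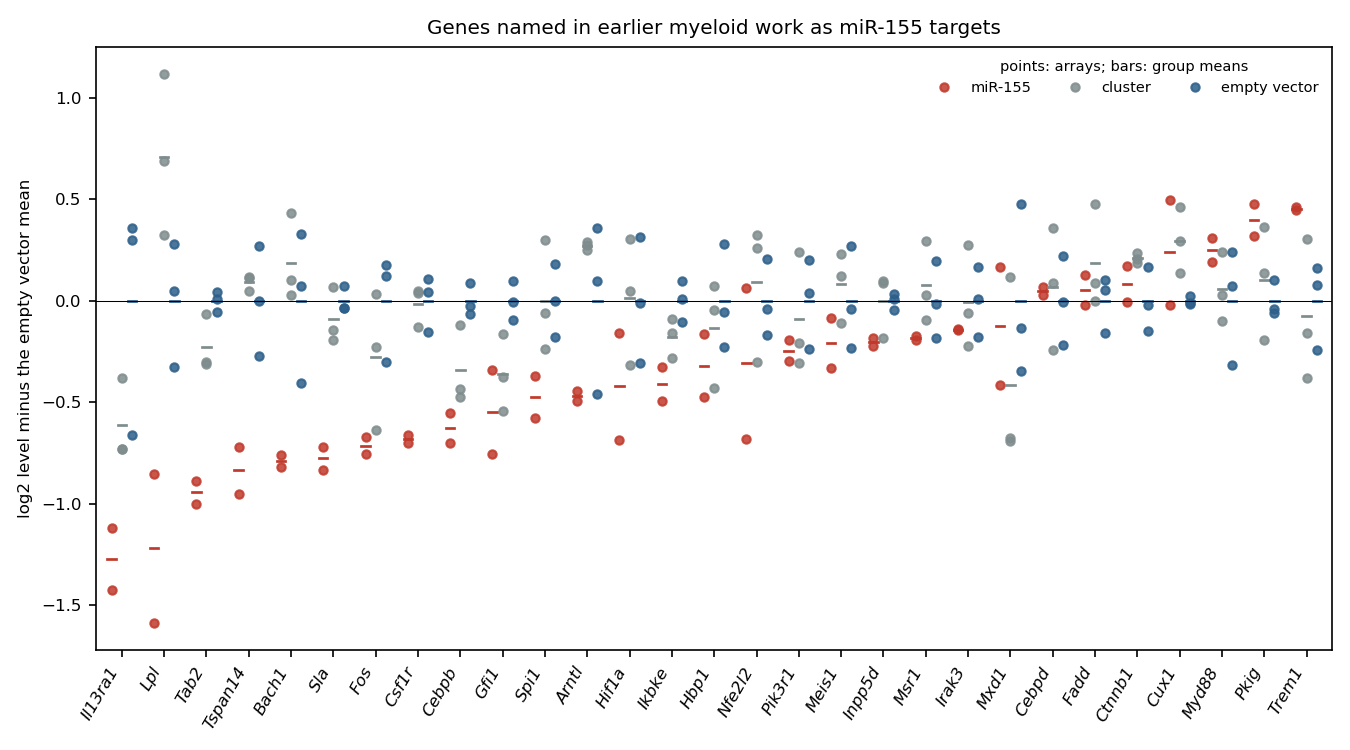
The 29 tested genes named in myeloid work as miR-155 targets are ordered by log2 difference, with arrays as points and group means as bars, as log2 level minus the mean of the empty vector arrays. Il13ra1 and Lpl lie lowest in miR-155 cells (-1.27 and -1.22), and Trem1 lies highest (0.45).

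Genes that rose in miR-155 cells were fewer, and no lineage list held more than 1 of them. Bcat1, the cytosolic enzyme that transfers amino groups of branched-chain amino acids, had 8.65 and 8.89 in miR-155 cells, against 7.42, 6.77 and 7.43 in empty vector cells. The groups lay apart, and Bcat1 was 2.95-fold higher (log2 difference 1.56, SE 0.22, adjusted p = 0.00152). Cnrip1, a protein that binds the cannabinoid receptor CB1, had 7.06 and 6.89 in miR-155 cells and 5.77, 5.55 and 5.83 in empty vector cells. Its log2 difference was 1.26 (SE 0.18, adjusted p = 0.00195), and it was the 1 higher gene still called without miR-155 array 2. Thy1, a glycoprotein of the surface of lymphocytes and other cells, had 7.80 and 8.18 in miR-155 cells, against 6.50, 6.67 and 6.96 in empty vector cells (log2 difference 1.28, adjusted p = 0.00445). Car2, a carbonic anhydrase of erythroid and other cells, rose by 1.13 (adjusted p = 0.0139), and Ccl3, a chemokine that attracts monocytes, by 1.11 (adjusted p = 0.034), both on the log2 scale.

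**Figure D5:**
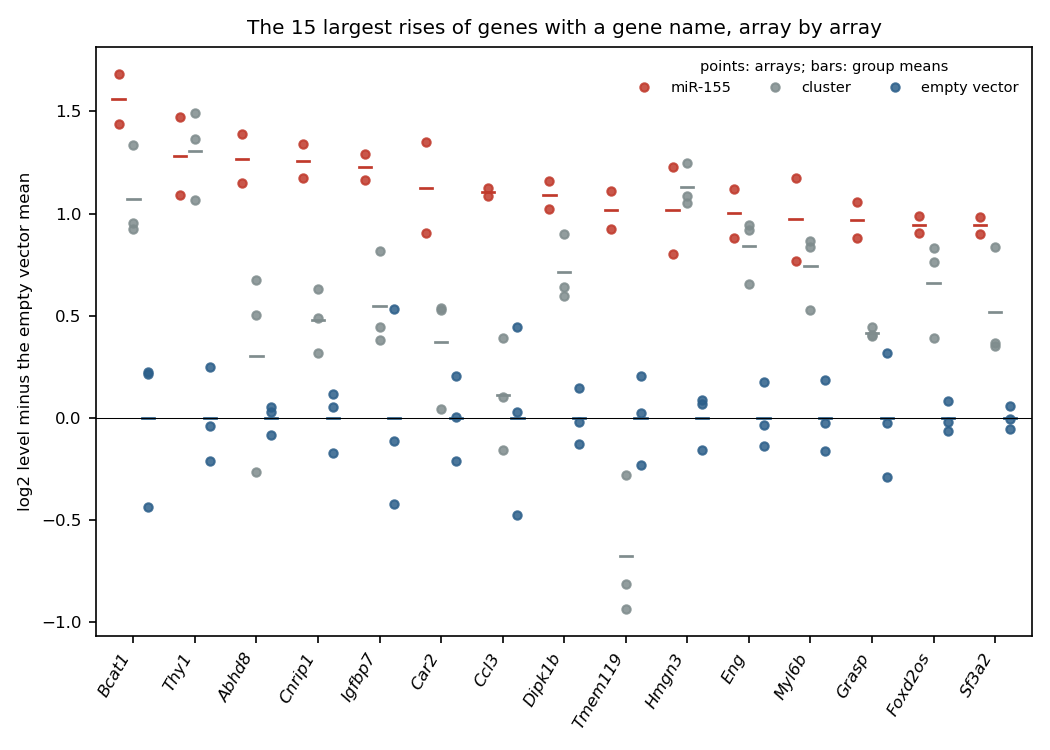
The 15 largest called rises among genes with more than a clone or model name are drawn with each array as a point and group means as bars, as log2 level minus the mean of the empty vector arrays. miR-155 (red) lies above the empty vector (blue) in all 15. The mean of the cluster vector (grey) lies above that of miR-155 for Thy1 and Hmgn3. It lies below the empty vector mean for Tmem119, and between the miR-155 and empty vector means for the others.

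The remaining large rises spanned varied functions, beside B230217C12Rik, which has only a clone name and was higher by 1.26 (log2 difference, adjusted p = 0.00823). Igfbp7, a secreted binding protein of insulin-like growth factors, rose by 1.23 (adjusted p = 0.0174), and Eng, the TGF-beta co-receptor endoglin, by 1.00 (adjusted p = 0.0126). Abhd8 rose by 1.27 (adjusted p = 0.0126), Dipk1b by 1.09 (adjusted p = 0.00619) and Hmgn3, a nucleosome-binding protein, by 1.02 (adjusted p = 0.0126). Myl6b (0.97), Grasp (0.97), Foxd2os (0.95) and Sf3a2 (0.94) followed, with adjusted p values of 0.0219, 0.0214, 0.0174 and 0.0215. Tmem119, described with the cluster vector below, completed the 15 largest with a gene name (log2 difference 1.02, adjusted p = 0.0282). These are log2 differences, and Foxd2os is a transcript from the strand opposite a gene.

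Other lineages held few called genes, beside 0.875% called lower and 0.206% called higher over all genes tested. Among erythroid genes, 2 of 14 were lower, the adult beta-globin genes Hbb-bs and Hbb-bt, and 1 was higher (Car2). Hbb-bs had 6.52 and 6.64 in miR-155 cells, against 7.96, 7.77 and 8.01 in empty vector cells (log2 difference -1.33, SE 0.19, adjusted p = 0.0011). Hbb-bt had a log2 difference of -1.09 (adjusted p = 0.0126), and the pair is near-identical, so its probes may read both. In the mast cell and basophil list, Fcer1a, the alpha chain of the IgE receptor, was lower with 7.04 and 7.20 in miR-155 cells, against 8.19, 7.87 and 8.41 in empty vector cells (log2 difference -1.04, adjusted p = 0.0153), and Ccl3 was higher. Il1b, the inflammatory cytokine interleukin 1 beta, was lower by 1.13 (adjusted p = 0.0174), and Ccl9, a chemokine, by 0.80 (adjusted p = 0.0445). In the lysosome list 1 of 24 was called lower, the protease gene Ctsh (log2 difference -0.82, adjusted p = 0.0272). The median of that list was -0.21, and without overlap 9 of its 24 genes lay below the empty vector and 1 above. The shares over all genes tested were 12.4% below and 11.9% above.

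Lists of primitive progenitor, megakaryocyte, interferon-stimulated, p53 target, apoptosis, DNA replication, mitosis, cholesterol synthesis, ribosome biogenesis, glycolysis and microRNA processing genes held 0 called genes. Their medians lay between -0.065 (mitosis) and 0.12 (glycolysis) on the log2 scale, near the 0.0058 of all genes. The PI3K, SHIP and AKT list (median -0.16), the lineage-directing transcription factors (-0.11) and the 4 eosinophil genes tested (-0.15) also held 0. The lymphoid list held 1 called gene (Thy1, median -0.21), as did the lists of cytokine receptors and SOCS genes (Il13ra1, -0.13), the NF-kB pathway (Tab2, -0.098) and immediate early genes (Fosl2, -0.056). Counts of 0 do not show that these genes were equal in both groups, given the number of arrays. Without overlap, 7 of 22 primitive progenitor genes lay above the empty vector and 2 below. For cholesterol synthesis, 5 of 19 lay above and 0 below. Over all genes tested, 11.9% lay above and 12.4% below. In the interferon list the largest differences were those of Bst2, an antiviral membrane protein (log2 difference 0.90, adjusted p = 0.178), and Gbp3, a guanylate-binding protein (-0.84, adjusted p = 0.0851).

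Set against the cluster vector, miR-155 cells had 77 lower genes (0.757% of genes tested) and 12 higher genes (0.118%), and 1056 genes at an unadjusted p under 0.05. The largest falls were Rab34, a small GTPase, and Cited4, a transcriptional co-activator, followed by Hbb-bs, Lpl and Cbr3, a carbonyl reductase. Rab34 had 5.19 and 5.35 in miR-155 cells, against 7.91, 7.97 and 7.84 in cluster cells, and 6.40, 6.10 and 6.46 in empty vector cells. Its miR-155 arrays lay below all arrays of both other groups, and the log2 difference from the cluster was -2.64 (SE 0.18, adjusted p = 9.69e-07), against -1.05 from the empty vector (adjusted p = 0.0079). Cited4 had 5.35 and 5.40 in miR-155 cells, against 7.64, 7.26 and 7.35 in cluster cells (log2 difference -2.04, adjusted p = 8.16e-05). Cited4 did not differ detectably from the empty vector (log2 difference 0.21, adjusted p = 0.849). Lpl had 8.23 and 7.50 in miR-155 cells and 9.41, 10.20 and 9.78 in cluster cells, so the fall from the cluster was 3.81-fold (adjusted p = 0.00103). Without miR-155 array 2, 15 genes were called in this comparison, and 56 without miR-155 array 1, 55 without cluster array 3 and 57 without the unnumbered cluster array.

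The 2 genes higher in both comparisons were Tmem119 and Hrh2, the histamine receptor H2 gene, the second named after its values were seen. Another detected probe of Hrh2 had the opposite sign against the empty vector (log2 difference -0.31). Tmem119, a membrane protein known as a microglia marker in mice, had 7.26 and 7.45 in miR-155 cells, against 6.06, 5.40 and 5.52 in cluster cells and 6.11, 6.54 and 6.36 in empty vector cells. It was the largest rise over the cluster (log2 difference 1.69, SE 0.22, adjusted p = 0.000653), followed by Slc46a3 (1.05), Atp6v0a1 (1.02), Btla (1.00) and Rapsn (0.97). Btla, an inhibitory receptor of lymphocytes, had 6.34 and 6.29 in miR-155 cells, against 5.29, 5.36 and 5.29 in cluster cells (adjusted p = 0.01). Its empty vector arrays had 6.01, 6.26 and 6.27. Slc46a3, Atp6v0a1, Btla and Rapsn were not called against the empty vector (log2 differences 0.27, 0.27, 0.13 and 0.42). Against both other vectors 33 genes were lower. For the stefin genes the cluster was itself below the empty vector, and the log2 difference of Stfa2 from the cluster was -1.15 (adjusted p = 0.0836), not called. Csta2 (log2 difference -1.44, adjusted p = 0.00335), Stfa1 (-1.12, 0.0202) and Cstdc4 (-1.11, 0.0308) were called lower than in cluster cells. In cluster cells Ltf, Camp, Ngp, Fcnb and Chil1 had means of 8.85, 8.37, 10.80, 9.05 and 6.56. Their miR-155 means were 8.42, 8.68, 10.66, 9.12 and 6.75, and their empty vector means 10.85, 10.26, 12.22, 10.74 and 8.45. Those genes were not called against the cluster. Chil3 (log2 difference -1.20, adjusted p = 0.0167), Chil4 (-1.02, 0.0433) and Cd177 (-1.12, 0.045) were called lower than in cluster cells. Of the lists, the neutrophil maturation genes had 4 of 28 lower than in cluster cells, with a median of -0.31. The comparisons share the miR-155 arrays, so the values are given side by side only.

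Promoters of the called genes were searched for short motifs of myeloid transcription factors, as a description. RefSeq promoters (250 bases before to 50 after the start, GRCm38.p6) were found for 75 of the 89 lower genes, 15 of the 21 higher genes and 8306 of all genes tested. The letters GAGGAA, the core of PU.1 sites, stood on either strand in 41.3% of 92 promoters of lower genes, 47.1% of 17 promoters of higher genes and 26.9% of 10594 promoters of all genes tested. The C/EBP word TTGCNNAA stood in 19.6% of promoters of lower genes, in 0 of 17 of higher genes and in 8.57% of all. The AP-1 word TGANTCA stood in 7.61%, 11.8% and 5.29% of the 3 sets, and the MAF core TGCTGA in 18.5%, 17.6% and 14.9%. A word in a window is not a bound site. These shares carry no test, and promoters of the stefin copies are related in sequence, so they are not independent. The C/EBP words in the promoters of the 15 largest falls are shown because their genes include the granule gene Ltf, with the word in capitals and 10 bases on either side. Camp and Ngp are not among these 15 genes.

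Chil4: atggagcttaTTCAGCAAtgtgaagcta

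Cstdc5: gcagtaagacTTGCCTAAggccacactc

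Fcnb: aaggcaggccTTTTGCAAacagaggtgc

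Fcnb: tttaggtctcTTGTGCAAccagaggcct

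Ltf: ggcaggcctaTTGGGCAAtagggtgggg

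Stfa1: gcagtaagacTTGCCTAAggccacactc

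These windows lie in the genome (GRCm38.p6) at chr3:106219593-106219620 (Chil4, minus strand), chr16:36367641-36367668 (Cstdc5, minus strand), chr2:28085096-28085123 (Fcnb, minus strand), chr2:28084984-28085011 (Fcnb, minus strand), chr9:111019207-111019234 (Ltf, plus strand) and chr16:36277029-36277056 (Stfa1, plus strand). The windows of Cstdc5 and Stfa1 are identical, and Fcnb holds 2 windows. Of the 15 genes, 14 had a promoter, 5 of them with the C/EBP word and 9 with the PU.1 core.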

How the data were processed

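RNA of mouse marrow cells was measured on Illumina bead arrays, and the labels' protocols give a starting amount of 100 ng. GenomeStudio, which the submitters' processing notes name without a version, made the intensity values, deposited with neither background subtraction nor normalization. A detection p-value per probe and array was deposited beside them, per the file headers. The log2 values of the series matrix, deposited by the authors, served as an alternative. No source used here states how they were made, and their values alone gave the log2 scale. Sample titles gave the groups. Of the cluster arrays of dataset A, 1 intensity column repeats the header of another, so it was used as a cluster array without a number. The detection column headed cluster array 2 could not be tied to an intensity column by name, so 1 column was not used. Detection was counted over the other 7 arrays, which departs from the planned count over 8. The background of the unnumbered array was estimated with the mean detection p-value of those 7 arrays at each signal rank.

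With limma 3.58.1 in R 4.3.3, and data.table (version 1.17.8), normexp (offset 16) corrected the background, its control beads being inferred through the detection p-values, quantiles were normalized over the 8 arrays of dataset A, and 1 fit (lmFit, contrasts, eBayes) covered the 3 groups. Benjamini-Hochberg adjusted p under 0.05 was called. Each gene was represented by its brightest probe. Probes were named by the platform annotation (34885 probes with 1 gene symbol, 18 with several and 10378 with none), and 34807 gene IDs matched GRCm38.p6. No biological pairing is given, and p-values measure the spread among these arrays, which also limits precision. Other detected probes existed for 42 called genes, and 58 of 65 had the same sign. Their log2 differences could be smaller than that of the probe used. Examples are Itgb2l (-0.55 against -2.11), Cd177 (-0.60 against -1.96) and Ltf (-1.24 against -2.44). For Stfa1 (-2.39 against -2.56) and Ms4a6d (-1.22 against -1.25) they were close. The fit was run on simulated data with independent normal noise and, for each gene, the same spread in every group. That run checked the computation and not the assumptions of the fit for these arrays. Named genes were the 15 largest called rises and falls with groups that did not overlap, leaving out gene models with only a clone or model name, up to 4 called members of each list (2 largest where none was called), the measured myeloid miR-155 targets, and the 5 largest differences from the cluster. Camp, Ngp, Lrg1, Ifitm6, Itgam, Csta3, S100a8, S100a9, Hrh2 and B230217C12Rik lie outside that rule and were named after their values were seen. The members and lists were chosen with earlier results of these data known. Alternatives were other background, normalization, filter, prior, weights and probe settings, the series matrix, a replicate block and each array left out.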

Additional observations from a re-analysis of the deposited data

How the results depend on the processing

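All 110 genes called against the empty vector kept their sign in every alternative run, but their calls depended on the settings. The main counts were 21 higher and 89 lower genes against the empty vector and 89 genes called against the cluster. In that order the counts were 9, 47 and 46 without background correction, 13, 58 and 59 with an offset of 50, 13, 43 and 35 with arrays shifted to a common median, 3, 37 and 27 without a filter, and 9, 47 and 46 on the series matrix values. With each array left out in turn they ranged between 1 and 21, between 20 and 87, and between 15 and 83, the lowest in each case without miR-155 array 2. Called under every setting were 1 of the 21 higher and 16 of the 89 lower genes. Atp6v0a1, not called against the empty vector, had a log2 difference between -0.0292 without miR-155 array 2 and 0.57 without array 1. The cause of these shifts was not tested. With 1 array left in the miR-155 group, its spread is taken from the other groups.

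No label ties same-numbered arrays together, so the numbers were used as names. Deviations of same-numbered arrays correlated at 0.251 and 0.0442 between miR-155 and empty vector, and between -0.155 and 0.276 over all 5 pairs with the cluster included. With a replicate block, over the arrays that carry a number, 18, 81 and 27 genes were called, and with a replicate block on the series matrix values 4, 36 and 27.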
